A study of Mus musculus with 13 samples.

Results

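The 10 chemokine genes described here are 6 of the CC class (Ccl2, Ccl7, Ccl12, Ccl3, Ccl4 and Ccl5) and 4 of the CXC class (Cxcl1, Cxcl2, Cxcl5 and Cxcl10). They were picked out by symbol, with no threshold on their values but with earlier results of these data known, and all 10 had a single line in each of the deposited count tables, out of 23238 symbols in tissue and 24542 in culture. RNA sequencing covered 13 mouse libraries. In tissue these were hippocampi of 3xTg mice, an Alzheimer disease model in which Thy1 sequences drive human APP and tau with disease mutations in neurons, on a mutant presenilin knock-in. The mice had received either control adeno-associated virus 9 (AAV9; 3 libraries) or AAV9 with Nurr1 (gene symbol Nr4a2) and Foxa2, together called N+F (4 libraries), and all 7 carry amyloid beta as their labelled treatment. In culture these were glia from ICR pups at postnatal day 1, with 1 library for each of 6 groups. Hippocampal and cortical glia each had control lentivirus with no treatment (untreated), control lentivirus with amyloid beta (amyloid beta control), and N+F lentivirus with amyloid beta. The age and sex of the 3xTg mice, the promoter of the vectors and any pooling of animals are not given in the sources used here.

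Chemokines are small secreted proteins that steer leukocytes and glia along concentration gradients through G protein-coupled receptors. The classes are named for the spacing of the first conserved cysteines, which are adjacent in CC and separated by a residue in CXC chemokines. Ccl2, Ccl7 and Ccl12 are monocyte attractants that act on Ccr2. Ccl3, Ccl4 and Ccl5 attract monocytes and T cells, and in brain Ccl3 and Ccl4 are typically products of microglia. Cxcl1, Cxcl2 and Cxcl5 attract neutrophils through Cxcr2, and Cxcl10 is an interferon-induced attractant of T cells through Cxcr3. Many of these genes are known to be switched on by NF-kB, and Cxcl10 also through interferon response elements. On the GENCODE M21 annotation all 6 CC genes lie on chromosome 11 and all 4 CXC genes on chromosome 5. Ccl2 neighbours Ccl7, Ccl3 neighbours Ccl4, and Cxcl1 neighbours Cxcl2. Because such neighbours are related in sequence, and how reads matching several genes were counted is not given, their separate counts are less certain than those of other genes.

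Upstream sequences were searched for NF-kB type and other motifs next to the gene start. Of the 10 genes, 5 matched the RefSeq promoter table of build GRCm38.p6. Ccl2, Ccl7, Ccl4, Ccl5 and Cxcl5 did not, so their upstream sequences were not searched. The 250 bases before the start are given 5′ to 3′ on the strand of the gene, with capitals for matches to the searched motifs. They lie at chr5:90890995-90891244 (plus strand, Cxcl1), chr5:90903649-90903898 (plus strand, Cxcl2), chr5:92348890-92349139 (minus strand, Cxcl10), chr11:83649379-83649628 (minus strand, Ccl3) and chr11:82101595-82101844 (plus strand, Ccl12). These are reference coordinates, and the build behind the deposited counts is not established.
Cxcl1: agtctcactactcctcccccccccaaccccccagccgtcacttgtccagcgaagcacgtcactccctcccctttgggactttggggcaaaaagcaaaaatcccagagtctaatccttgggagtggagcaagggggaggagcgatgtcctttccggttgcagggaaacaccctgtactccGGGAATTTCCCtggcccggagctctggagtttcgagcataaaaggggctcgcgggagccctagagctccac
Cxcl2: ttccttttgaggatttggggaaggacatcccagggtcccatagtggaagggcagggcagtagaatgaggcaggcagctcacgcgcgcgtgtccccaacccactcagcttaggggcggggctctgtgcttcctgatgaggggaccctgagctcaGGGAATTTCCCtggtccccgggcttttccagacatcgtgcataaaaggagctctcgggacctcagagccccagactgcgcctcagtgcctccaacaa
Cxcl10: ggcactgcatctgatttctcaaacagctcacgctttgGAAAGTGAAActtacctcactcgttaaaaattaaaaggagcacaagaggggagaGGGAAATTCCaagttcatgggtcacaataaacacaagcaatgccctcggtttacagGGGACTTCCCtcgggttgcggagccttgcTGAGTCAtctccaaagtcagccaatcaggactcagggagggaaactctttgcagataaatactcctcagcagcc
Ccl3: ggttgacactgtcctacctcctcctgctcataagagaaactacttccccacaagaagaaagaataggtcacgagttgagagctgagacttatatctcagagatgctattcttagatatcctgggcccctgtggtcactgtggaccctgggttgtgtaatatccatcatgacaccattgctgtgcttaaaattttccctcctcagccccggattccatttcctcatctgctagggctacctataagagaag
Ccl12: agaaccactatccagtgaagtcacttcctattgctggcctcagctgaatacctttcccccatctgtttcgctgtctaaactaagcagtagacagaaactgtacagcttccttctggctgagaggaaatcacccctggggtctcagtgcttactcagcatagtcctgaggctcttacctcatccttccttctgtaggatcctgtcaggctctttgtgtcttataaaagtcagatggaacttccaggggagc

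Motifs were searched on both strands. The NF-kB site matched in 3 of the 5 windows, in Cxcl1 from 71 to 62 bases before the start, in Cxcl2 from 97 to 88 and in Cxcl10 at 159 to 150 and again at 103 to 94. In Cxcl1 and Cxcl2 an overlapping match on the other strand, shifted by 1 base, extends the capitals (70 to 61 and 96 to 87). Over all 32851 promoter windows of this length 3.90% held such a match. Cxcl10 also held the interferon response element core, GAAA and GAAA with any 2 bases between, at 213 to 204 bases before the start (2.98% of all windows) and TGANTCA, the AP-1 core, at 74 to 68 (6.75%). Neither AAAGGTCA, the monomer element bound by Nurr1 (1.34% of all windows), nor TGTTTAC, a forkhead core (3.17%), occurred in the 5 windows. Only these exact letters were searched, so other forkhead or Nurr1 type sequences in the windows are not covered. Such matches describe the letters of these windows and are not binding data. The windows of the neighbours Cxcl1 and Cxcl2 were 52.0% identical over 294 aligned positions, against 46.9 to 52.4% for the other pairs of windows.

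Library totals ran from 10194437 to 25139406 counts in tissue and from 52189025 to 78273121 in culture. Levels below are CPM, counts divided by the library total and scaled to a common depth, unless stated. Both delivered genes were higher with N+F than in the amyloid beta control in culture. Nr4a2 in hippocampal glia had 58.3 CPM untreated, 3.35 CPM in the amyloid beta control and 488 CPM with N+F, and in cortical glia 19.0, 5.14 and 36.9 CPM. Foxa2 had 0 counts in the 4 culture libraries without N+F, and 140 and 13.5 CPM with it. In tissue both genes overlapped between the groups. Nr4a2 had 19.4 to 45.1 CPM in controls and 22.1 to 34.2 CPM with N+F, and Foxa2 had 5, 1 and 1 counts in controls and 26, 5, 1 and 6 counts with N+F (0.199, 0.0827 and 0.0795 against 2.55, 0.449, 0.0883 and 0.489 CPM). The culture libraries did not all match glia in their markers. The untreated libraries held neuron markers at summed levels of 8490 and 9084 CPM (10 genes, hippocampal and cortical) and oligodendrocyte markers at 9160 and 7708 CPM (8 genes), against 382 to 485 and 173 to 472 CPM in the other 4 libraries. The cortical N+F library stood apart in mural and fibroblast markers, with a sum of 9119 CPM over 9 genes against 261 to 1347 CPM in the other 5 libraries. Astrocyte markers were abundant in all 6, at 5641 to 9224 CPM.

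In the libraries labelled as untreated glia the chemokine genes were close to silent. Their summed level was 1.94 CPM in untreated hippocampal and 1.28 CPM in untreated cortical glia, and no member exceeded the 0.621 CPM (42 counts) of Cxcl5 in hippocampal glia. Ccl2 and Cxcl2 had 0 counts in both untreated libraries, and Ccl7, Ccl5 and Cxcl1 had 0 in the cortical library. A count of 0 allows up to 3 counts, so these levels were at most 0.0444 CPM in hippocampal and 0.0575 CPM in cortical glia. No member reached 1 CPM in either untreated library. These libraries also held the neuron and oligodendrocyte markers given above. Choroid plexus markers (7 genes) summed to 4375 CPM in the untreated hippocampal and 501 CPM in the untreated cortical library. In the amyloid beta controls they had 4.78 and 3.56 CPM, and with N+F 15.7 and 406 CPM. Almost all of the 406 CPM in the cortical N+F library was Aqp1, at 405 CPM, while Ttr and Kcnj13 were at 0 there. In the untreated libraries Ttr made up most of the sum, at 4114 CPM in the hippocampal and 468 CPM in the cortical library. Whether the low chemokine levels belong to glia without treatment was not tested.

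Amyloid beta control glia held far more chemokine transcripts than untreated glia in both regions. The summed level was 459 CPM in hippocampal and 409 CPM in cortical glia. Of the 10 genes, all but Ccl12 got to 1 CPM in both pairs, and these 9 were at least 2-fold higher in both regions, counted on CPM + 1. Of all 14516 genes that reached this level 16.6% were at least 2-fold higher in both regions, and 21.5% at least 2-fold lower. In hippocampal glia alone 9 members were higher (21.0% of genes) and 0 lower (25.6%), and in cortical glia alone 9 were higher (19.8%) and 0 lower (25.4%). The median log2 ratio of the 9 was 3.60 in hippocampal and 4.50 in cortical glia, against -0.03 and -0.01 over all genes. There was 1 library per group, so these ratios have no replicate error, and the untreated libraries differed in cell type markers as given above; their part in the ratios was not tested.

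Among the monocyte attractants Ccl2 and Ccl7 were high with amyloid beta and Ccl12 was not. Ccl2 went from 0 counts to 86.0 CPM in hippocampal glia and from 0 counts to 98.1 CPM in cortical glia, at least 1936-fold and at least 1707-fold higher against the floor of 3 counts per library. Ccl7 went from 0.104 to 35.3 CPM in hippocampal glia, a ratio of 341 (95% counting interval 165 to 849). In cortical glia it went from 0 counts to 21.6 CPM, at least 376-fold higher. Ccl12 remained low, with 0.355 and 0.214 CPM in the untreated and amyloid beta control hippocampal libraries and 0.364 and 0.675 CPM in the cortical ones. Its ratio was 0.603 (0.299 to 1.18) in hippocampal and 1.85 (1.05 to 3.38) in cortical glia.

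Ccl3, Ccl4 and Ccl5 were also higher with amyloid beta in both regions. Ccl3 went from 0.429 to 5.84 CPM in hippocampal glia, 13.6-fold (9.33 to 20.5), and from 0.249 to 7.81 CPM in cortical glia, 31.3-fold (18.1 to 59.3). Ccl4 went from 0.0592 to 1.51 CPM and from 0.230 to 1.70 CPM, with ratios of 25.6 (9.71 to 95.4) and 7.38 (4.05 to 14.7). Ccl5 went from 0.178 to 1.53 CPM in hippocampal glia, 8.59-fold (4.73 to 17.1), and from 0 counts to 7.11 CPM in cortical glia, at least 124-fold higher. Microglia markers moved the other way in these libraries. Their sum over 10 genes was 526 and 549 CPM in the untreated and 84.1 and 107 CPM in the amyloid beta control libraries, and Siglech was at 0 in every amyloid beta library. Infiltrating leukocyte markers summed to at most 5.23 CPM over 12 genes in any culture library, and Cd3g of T cells and Ly6g of neutrophils were at 0 in all 6.

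The neutrophil attractants and Cxcl10 included members that went from almost no counts to high levels. Cxcl1 went from 2 counts to 182 CPM in hippocampal glia, a ratio of 6145 (1701 to 50743), and from 0 counts to 147 CPM in cortical glia, at least 2564-fold higher. Cxcl2, its neighbour, went from 0 counts to 3.87 and 3.29 CPM, at least 87.1-fold and at least 57.3-fold higher. Cxcl5 went from 0.621 to 18.7 CPM in hippocampal glia, 30.1-fold (22.1 to 41.9). In cortical glia it went from 0.268 to 43.2 CPM, 161-fold (95.8 to 295). Cxcl10 went from 0.163 to 124 CPM and from 0.172 to 77.6 CPM, with ratios of 763 (426 to 1530) and 450 (237 to 985). Per kilobase of the longest coding transcript, Cxcl1 (191 CPM per kb) led in amyloid beta control hippocampal glia, ahead of Ccl2 (106) and Cxcl10 (91.8). In cortical glia the order was Cxcl1 (155), Ccl2 (121) and Cxcl10 (57.4). At the other end Ccl12 had 0.399 and 1.26 CPM per kb. Cxcl2, with an NF-kB match in its window like Cxcl1, had 2.08 and 1.77 CPM per kb.

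**Figure D1:**
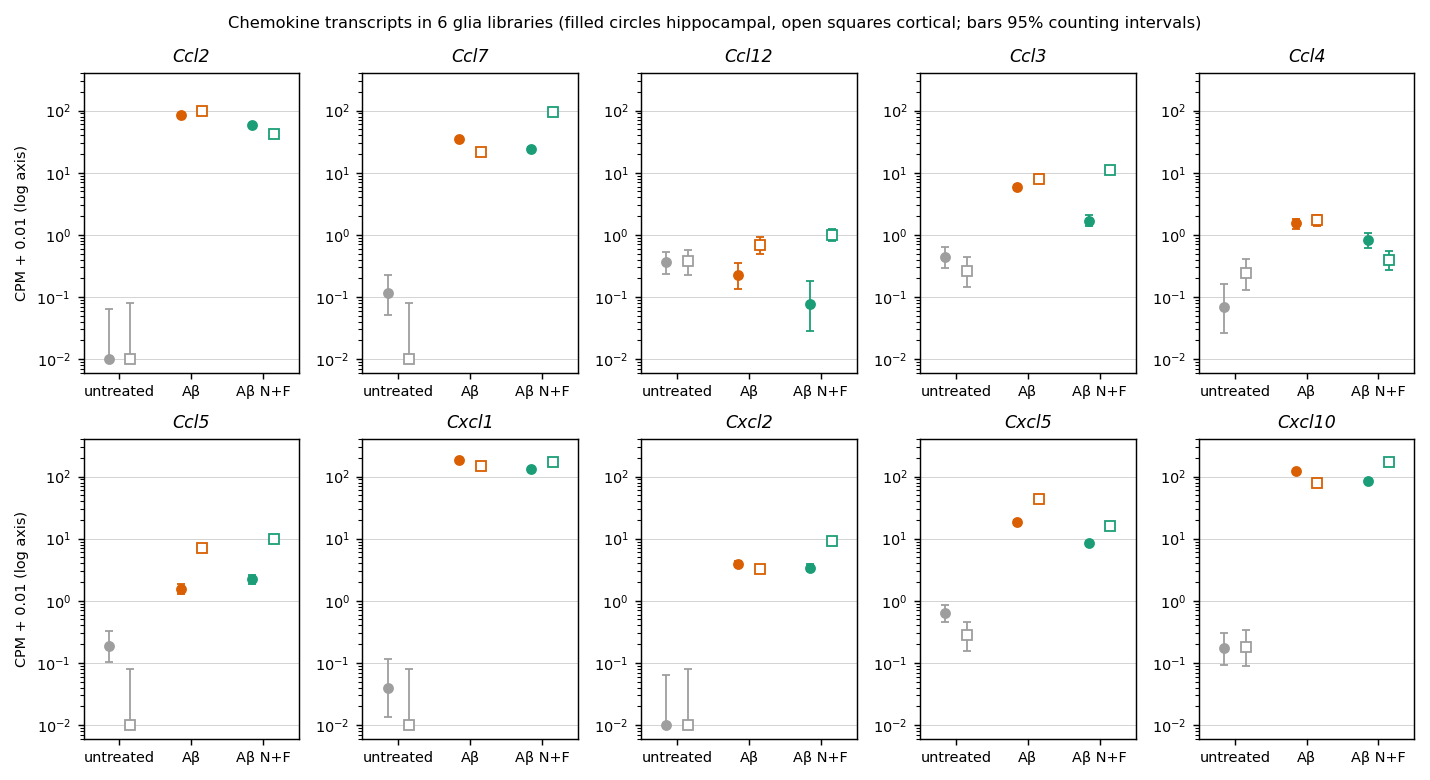
CPM + 0.01 (log axis) of each chemokine gene in the 6 glia libraries, 1 point per library with its 95% Poisson counting interval; points at 0.01 are 0 counts. All genes but Ccl12 sit higher in the amyloid beta control libraries (orange) than in the untreated ones (grey), the interval of Ccl4 in cortical glia with N+F (green) overlaps that of the untreated library, and Ccl7, Ccl3, Cxcl2 and Cxcl10 are higher in cortical than in hippocampal glia with N+F.

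A secondary edgeR quasi-likelihood fit treated the regions as replicates, with region and condition as additive terms and 2 residual degrees of freedom. The spread in this fit is therefore the disagreement between the regions. It called 7 of the 10 genes higher with amyloid beta at an adjusted p under 0.05, where 15.9% of 16762 genes were called higher and 17.2% lower. The edgeR adjusted p was 0.00197 for Ccl2 and Cxcl1, 0.00242 for Cxcl10, 0.00733 for Cxcl5, 0.0105 for Ccl7, 0.0109 for Cxcl2 and 0.0391 for Ccl3. Ccl4 (0.0567) and Ccl5 (0.0918) did not pass, though both were higher in 2 of 2 regions, and Ccl12 had 0.941. Without the hippocampal amyloid beta control library Ccl7 and Ccl3 did not pass (0.0510 and 0.223). Ccl3 also missed without the cortical untreated (0.137) or the cortical amyloid beta control library (0.0750).

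Hippocampal and cortical glia were compared at each condition, with 1 library each. In the amyloid beta control 2 of the 9 genes that reached 1 CPM were at least 2-fold higher in cortical glia, Ccl5 (4.66-fold, 3.79 to 5.78) and Cxcl5 (2.31-fold, 2.16 to 2.47), and 0 were 2-fold higher in hippocampal glia. Of all genes 2.13% and 4.17% were at least 2-fold higher in cortical and in hippocampal glia. Ccl7 and Cxcl10 leaned to hippocampal glia, 1.63-fold (1.53 to 1.75) and 1.60-fold (1.55 to 1.66). With N+F 5 of 8 genes were at least 2-fold higher in cortical glia, where 7.06% of all genes were, and 17.3% of all genes were at least 2-fold higher in hippocampal glia. The 5 were Ccl7, Ccl3, Ccl5, Cxcl2 and Cxcl10. Nr4a2 and Foxa2 also differed between the N+F libraries of the regions, as given above, and their part was not tested. TMM scaling, a trimmed mean of M-values that rescales library totals, gave 6 of 9, with 1470 genes higher in cortical and 1475 in hippocampal glia against 999 and 2455 by library totals.

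The comparison of N+F with control lentivirus, both with amyloid beta, asked how the delivered factors changed the response of glia. In hippocampal glia the summed chemokine level was 459 CPM in the control and 314 CPM with N+F. In cortical glia it was 409 and 527 CPM. Only Cxcl5 was at least 2-fold lower in both regions on CPM + 1, and 0 genes were at least 2-fold higher in both. Over all 13479 genes that reached 1 CPM in both pairs 0.119% were at least 2-fold lower and 2.07% higher in both regions. The median log2 ratio of the 9 genes was -0.52 in hippocampal and 0.41 in cortical glia, against 0.12 and -0.18 over all genes. TMM scaling moved the median of all genes by -0.12 in hippocampal and 0.16 in cortical glia, and no member ratio changed sign with it.

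Cxcl5, Ccl2 and Ccl4 were lower with N+F in both regions. Cxcl5 went from 18.7 to 8.52 CPM in hippocampal glia, 2.19-fold lower (1.98 to 2.43), and from 43.2 to 15.9 CPM in cortical glia, 2.71-fold lower (2.54 to 2.91). Ccl2 went from 86.0 to 58.7 CPM, 1.46-fold lower (1.40 to 1.53), and from 98.1 to 42.7 CPM, 2.30-fold lower (2.20 to 2.40). These 2 genes remained far above their untreated levels with N+F. Ccl4 went from 1.51 to 0.810 CPM, 1.87-fold lower (1.32 to 2.67), and from 1.70 to 0.383 CPM, 4.43-fold lower (2.92 to 6.89), which rests on 30 counts with N+F. The cortical Ccl4 level with N+F was close to that of the untreated cortical library, 0.230 CPM.

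Ccl7, Ccl3, Cxcl1 and Cxcl10 were lower in hippocampal and higher in cortical glia with N+F. Ccl7, next to Ccl2 on the chromosome, went from 35.3 to 24.4 CPM in hippocampal glia but from 21.6 to 95.1 CPM in cortical glia, 4.40-fold higher (4.15 to 4.67). Cxcl10 went from 124 to 83.5 CPM in hippocampal glia, 1.49-fold lower (1.44 to 1.54). In cortical glia it went from 77.6 to 171 CPM, 2.21-fold higher (2.14 to 2.28). Ccl3 went in hippocampal glia from 5.84 to 1.69 CPM, 3.46-fold lower (2.78 to 4.33), and was higher in cortical glia, at 7.81 and 10.9 CPM, 1.40-fold (1.25 to 1.57). Cxcl1 went from 182 to 131 CPM and from 147 to 171 CPM, 1.39-fold lower in hippocampal (1.35 to 1.43) and 1.16-fold higher in cortical glia (1.13 to 1.19). None of the 10 genes moved by at least 2-fold in opposite directions on CPM + 1, and 0.749% of all genes did.

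Ccl5, Cxcl2 and Ccl12 made up the rest. Ccl5, a T cell and monocyte attractant, was higher with N+F in both regions, from 1.53 to 2.22 CPM (1.45-fold, 1.12 to 1.88) and from 7.11 to 9.80 CPM (1.38-fold, 1.22 to 1.55). Cxcl2 had 3.87 and 3.41 CPM in hippocampal glia, a ratio of 0.881 (0.733 to 1.06), and went from 3.29 to 9.19 CPM in cortical glia, 2.79-fold higher (2.38 to 3.28). Ccl12 had 16 and 4 counts in hippocampal and 41 and 77 counts in cortical glia, below 1 CPM in all 4 libraries.

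**Figure D2:**
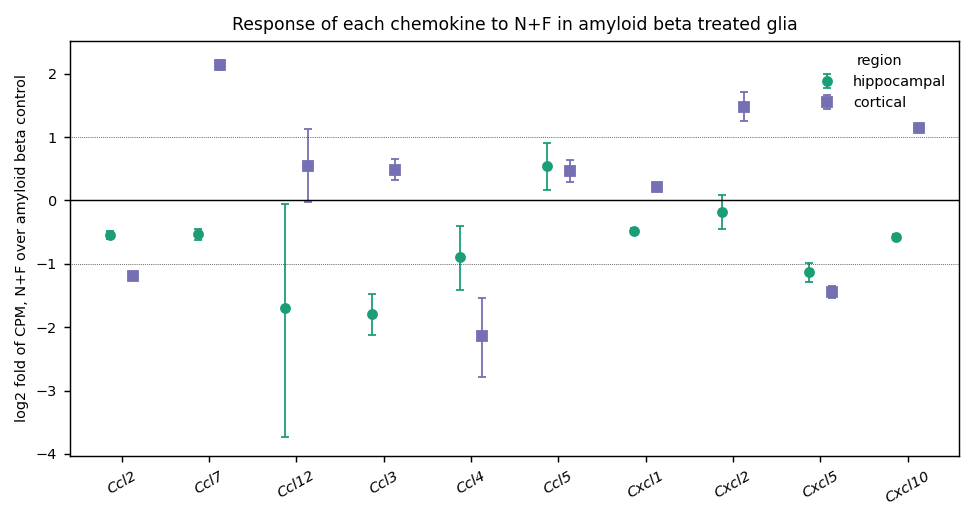
log2 fold of CPM with N+F over the amyloid beta control for each chemokine gene, hippocampal (circles) and cortical glia (squares), 1 library per group, bars being 95% counting intervals and dotted lines a 2-fold difference. Ccl2, Ccl4 and Cxcl5 lie below 0 in both regions, Ccl5 lies above 0 in both, and Ccl7 and Cxcl10 lie on opposite sides.

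Marker levels moved with the cortical N+F library. Mural and fibroblast markers went from 497 to 9119 CPM in cortical glia but from 1290 to 1347 CPM in hippocampal glia. Microglia markers went from 107 to 254 CPM in cortical glia and from 84.1 to 67.3 CPM in hippocampal glia, the same directions as Ccl3. Astrocyte markers went from 9224 to 7334 CPM and from 7950 to 5641 CPM. In these bulk libraries fewer or more cells of a type and less or more RNA per cell cannot be told apart. The cortical N+F library also had lower Nr4a2 and Foxa2 than the hippocampal one, as given above. The part of these markers and of the delivered genes in the chemokine ratios was not tested. The hippocampal ratios, which do not rest on the cortical libraries, had 2 members at least 2-fold lower on CPM + 1 (Ccl3 and Cxcl5; 0.767% of genes) and 0 higher (5.60% of genes). The cortical ratios had 2 lower (Ccl2 and Cxcl5; 15.1% of genes) and 3 higher (Ccl7, Cxcl2 and Cxcl10; 12.9% of genes).

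**Figure D3:**
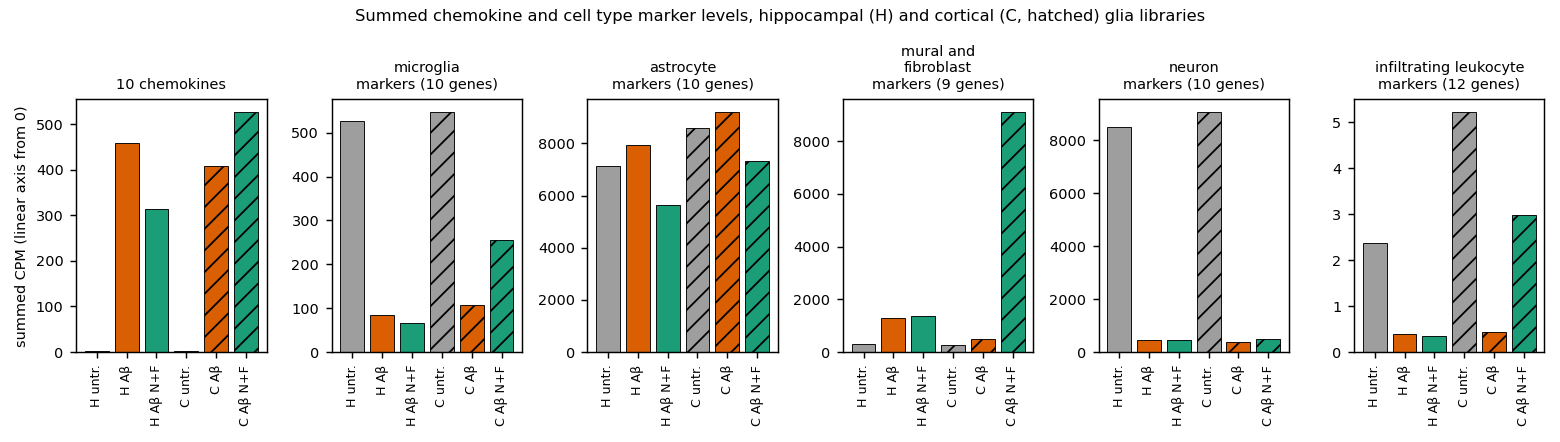
Summed CPM (linear axes from 0, 1 bar per library) of the 10 chemokine genes and of 5 marker lists in hippocampal (H) and cortical (C, hatched) glia. The chemokine sum is near 0 in the untreated libraries, where neuron and microglia markers are highest, and the cortical N+F library has both the highest chemokine sum, 527 CPM, and the highest fibroblast marker sum, 9119 CPM.

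Across both regions the additive edgeR fit called 0 of 10 members with N+F in either direction, and 0% of 16762 genes in either direction. At an unadjusted p under 0.05 it had 1156 genes, and DESeq2 called 471 genes, of which 0 were members. Ccl2 had the smallest value among members, with a log2 fold change of -0.85 ± 0.26 (SE) and an edgeR adjusted p of 0.704 (unadjusted 0.0286), lower in 2 of 2 regions. Cxcl5 had -1.27 ± 0.65 (edgeR adjusted p = 0.708), and Ccl7 had 1.06 ± 1.03 (0.769). A p that misses the threshold does not show that levels were alike.

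Beyond the 10 genes, other chemokine ligands were higher or lower with amyloid beta. Of 26 such ligands 10 reached 1 CPM in both pairs, with median log2 ratios of 0.84 and 0.90. Of these, 5 were at least 2-fold higher and 2 lower in both regions, against 16.6% and 21.5% of all genes. The 5 were Cxcl16, Cxcl11, Ccl9, Ccl28 and Ccl6, with log2 ratios in hippocampal glia of 1.86, 1.73, 1.39, 1.38 and 1.21. Cxcl11, like Cxcl10 a Cxcr3 ligand, had 0 counts untreated and 2.32 CPM with amyloid beta in hippocampal glia, and 0.153 and 3.79 CPM in cortical glia. The neuronal ligand Cx3cl1 was lower, from 569 to 229 CPM and from 786 to 158 CPM. Ccl27a was lower too, with log2 ratios of -2.03 and -3.57. With N+F 11 of these ligands reached 1 CPM in both pairs, and 0 were at least 2-fold changed the same way in both regions. A further 2 moved by at least 2-fold in opposite directions, as did 0.749% of all genes. Those 2, named after their values were seen, were Ccl6, which had 5.06 and 0.827 CPM in hippocampal glia and 11.4 and 79.2 CPM in cortical glia, and Ccl20, which went from 0.629 to 2.28 CPM and from 2.09 to 0.409 CPM.

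Receptors were mostly lower or below 1 CPM with amyloid beta. Of 23 receptor genes 7 reached 1 CPM in both pairs, and 4 of them were at least 2-fold lower and 1 higher with amyloid beta in both regions. Over all genes 21.5% were lower and 16.6% higher by this rule. Cx3cr1, the microglial receptor of Cx3cl1, went from 65.5 to 2.81 CPM and from 67.9 to 2.08 CPM. The atypical receptors Ackr1 and Ackr2, which bind chemokines without G protein signalling, had log2 ratios of -4.59 and -1.39 in hippocampal and -4.55 and -2.14 in cortical glia. Ccrl2 was the higher one, from 1.07 to 9.29 CPM and from 1.32 to 4.20 CPM. With N+F Cx3cr1 was lower again in both regions, at 0.860 and 0.537 CPM. Microglia markers, of which Cx3cr1 is one, were lower with amyloid beta as given above.

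Most genes of the inducer and NF-kB list were higher with amyloid beta. Of 30 inducers and NF-kB regulators 24 reached 1 CPM in both pairs, and 20 were at least 2-fold higher and 0 lower in both regions. Over all genes 16.6% were higher and 21.5% lower by this rule. The additive edgeR fit called 19 of 27 tested higher, where 15.9% of all genes were. The largest were Cebpd, a transcription factor of the acute phase (log2 ratios 4.98 and 6.43), the receptor Tlr2 (5.13 and 4.61), the RNase Zc3h12a that degrades cytokine transcripts (4.50 and 4.32), Nfkbiz (4.31 and 4.34), Irf7 (4.18 and 5.41) and Nfkb2 (4.01 and 3.63). With N+F 25 of the 30 reached 1 CPM in both pairs. Of these, 1 was at least 2-fold higher and 1 lower in both regions, against 2.07% and 0.119% of all genes. Tnf, the cytokine that activates NF-kB, was lower, from 1.93 to 0.397 CPM and from 3.11 to 0.409 CPM. Cebpb, a transcription factor of inflammatory genes, was higher, from 5.33 to 45.8 CPM and from 31.3 to 91.7 CPM.

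In 3xTg hippocampus the chemokine genes were rare transcripts, and 0 of 10 were called between N+F and control. Their summed level was 8.51 to 17.0 CPM in controls and 3.75 to 12.6 CPM with N+F, from 46 to 427 counts per library. Only Ccl3, Ccl5, Ccl12, Cxcl5 and Cxcl10 passed the count filter. The edgeR test called 17 of 15523 genes, 0.110%, of which 0.103% were lower and 0.00644% higher, and 1313 genes, 0 of them members, had an unadjusted p under 0.05. DESeq2 called 147 genes and 0 members. The labels do not say that the libraries come from separate animals, so the p-values measure the spread between these libraries. Of the 15523 genes 8.11% did not overlap between the groups in TMM-scaled CPM. The summed markers of 3 lists did not overlap either, but the medians over the genes of each of these 3 lists did overlap. Mural and fibroblast markers had 73.2, 369 and 342 CPM in controls and 43.7 to 66.6 CPM with N+F, endothelial markers 49.4 to 70.2 against 29.7 to 48.0 CPM, and astrocyte markers 2977 to 3793 against 2457 to 2915 CPM. Microglia markers overlapped, at 638 to 696 against 447 to 659 CPM, as did infiltrating leukocyte markers (11 of 12 in the table), at 8.68 to 41.0 and 19.7 to 42.9 CPM. Their part in the chemokine values was not tested.

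Levels in tissue are given as TMM-scaled CPM for the 5 genes that passed the filter, in the order of the replicate numbers of the labels. Cxcl10 had 2.97, 1.34 and 1.11 CPM in controls and 0.301, 1.43, 1.88 and 0.720 CPM with N+F. Control 1 lay above the other 6 libraries, and the groups overlapped. The log2 fold change was -0.78 ± 0.56 (SE; edgeR adjusted p = 0.788), and -0.19 without control 1. Ccl12 had 3.26, 1.50 and 4.35 CPM in controls and 3.31, 3.76, 1.58 and 0.800 CPM with N+F, with overlapping groups and a log2 fold change of -0.37 ± 0.51 (edgeR adjusted p = 0.907). Per kb of transcript, Ccl12 ranged from 1.52 to 8.15 CPM and Ccl3 from 0.623 to 6.44 CPM over the 7 libraries.

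Ccl3 split the tissue libraries without regard to treatment. It had 4.44, 4.18 and 0.474 CPM in controls and 4.32, 4.47, 0.593 and 0.560 CPM with N+F, so that 4 libraries had 4.18 to 4.47 CPM and 3 had 0.474 to 0.593 CPM, with both kinds in each group. Its log2 fold change was -0.32 ± 0.76 (edgeR adjusted p = 0.951). Ccl5 had 1.72, 0.835 and 0.237 CPM in controls and 0.402, 1.25, 1.28 and 0.480 CPM with N+F (log2 fold change -0.21 ± 0.64, edgeR adjusted p = 0.962). Cxcl5 had 1.07, 1.17 and 0.158 CPM in controls and 2.11, 0.805, 0.494 and 0.560 CPM with N+F (0.25 ± 0.67, edgeR adjusted p = 0.954). For these 5 genes the groups overlapped and the difference was within the spread between replicates.

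The other 5 genes had too few counts in tissue for the filter and are given as counts. Cxcl1 had 3, 2 and 13 counts in controls and 0, 1, 0 and 0 with N+F, or 0.440 ± 0.515 against 0.0225 ± 0.0449 CPM (SD, n = 3 and 4). Its groups did not overlap. Of the 15523 genes that passed the filter, which Cxcl1 did not, 8.11% did not overlap in TMM-scaled CPM. That share does not cover genes with as few counts as Cxcl1. For Cxcl1 the two-sided exact permutation p was 0.0571, the smallest this design allows (adjusted 0.286 over the 5 genes). Control 3 held most of the control counts. Ccl4 had 30, 7 and 5 counts in controls and 9, 5, 2 and 0 with N+F (exact permutation p = 0.343). Ccl7 had 9, 0 and 5 against 1, 0, 1 and 3 counts (0.286 by the same exact test), and Ccl2 had 9, 0 and 4 against 2, 3, 6 and 3 counts (0.571). Cxcl2 had 1 count in all 7 libraries together. The number of libraries, whatever their depth, keeps this exact test from passing a threshold of 0.05 for any gene.

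**Figure D4:**
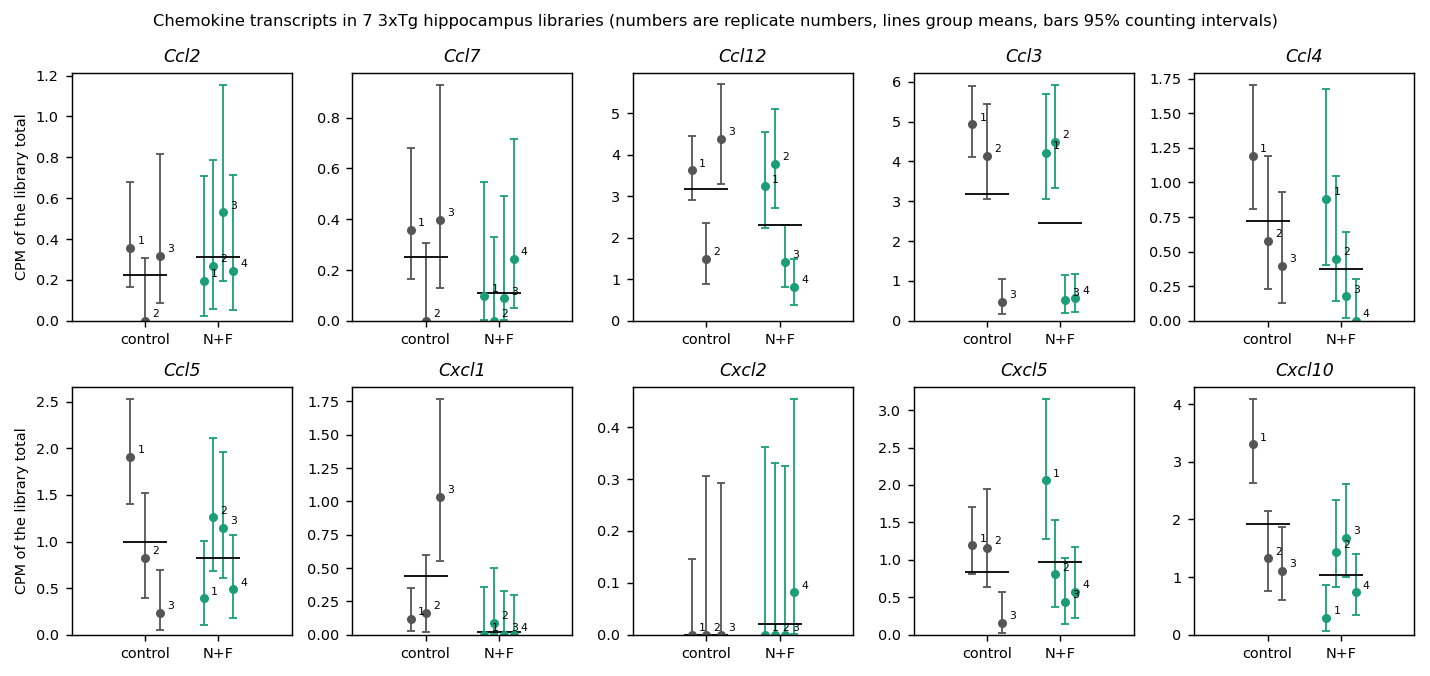
CPM of the library total of each chemokine gene in the 7 hippocampus libraries (points, numbered by replicate), with 95% counting intervals and group means as lines; axes are linear and differ between genes. Control and N+F libraries overlap for every gene but Cxcl1, whose N+F libraries hold 1 count in all, and Ccl3 falls into high and low libraries within each group.

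In tissue 13 of the 26 other ligands, 12 of the 23 receptors and 22 of the 30 inducers and regulators passed the count filter, and 0 of them were called. Their median log2 fold changes were 0.19, -0.13 and -0.24, against -0.00 over all 15523 genes. As a description of likeness over libraries, the genes most correlated with Ccl2 in log2(CPM + 1) over the 6 culture libraries were Dnpep, Vim, Ltbr, Prkd1 and Hist1h2al (Pearson r 0.9992 to 0.9994), and with Cxcl10 Atp5g2, Dnajb4, Tulp3, Glipr2 and Fam46b (r 0.9989 to 0.9992). Of 12313 genes at 10 CPM or more in a library 1413 and 1448 had r of at least 0.95 with Ccl2 and Cxcl10, and all share the contrast of untreated with amyloid beta libraries. Over the 7 tissue libraries the genes most like Cxcl10 were Alg13, F13a1, Esrrb, Neu1 and Slc9a9 (r 0.949 to 0.978), and Ccl2 did not pass the filter there.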

How the data were processed

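Whole-number counts per gene symbol were deposited by the authors in 2 tables (7 tissue and 6 culture libraries). Per the labels' protocols, RNA was extracted with Trizol and 1.3 µg entered a SMARTER mRNA-seq kit. Per the submitters' processing notes, TopHat, HISAT2 and edgeR were used, with no version or role given. They name hg19, a human build, although the symbols are mouse, so the build is not established and no coordinate was taken from the counts. Lines of a symbol were summed (44 tissue and 12238 culture lines repeated a symbol).

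Tissue was tested with edgeR 4.0.16 (filterByExpr, TMM, quasi-likelihood, Benjamini-Hochberg over all 15523 genes, R 4.3.3), with DESeq2 1.42.0 as an alternative. Genes below the filter were compared by exact permutation tests (SciPy 1.17.1; 35 splits, smallest two-sided p 0.0571). Culture groups had 1 library each: a gene counted when CPM reached 1 in a library of each pair and log2(CPM + 1) differed by 2-fold. The 95% intervals of single ratios and levels are exact Poisson or binomial and cover counting error only, as does the floor of 3 counts. The floor was 0.119 to 0.294 CPM in tissue and 0.0383 to 0.0575 CPM in culture. Scripts were tested on simulated data with 200 changed genes. The tissue test recovered 92.8% of 4-fold and 55.8% of 2-fold changes. The additive culture fit of N+F recovered 18.3% of 4-fold changes, so it missed most changes of that size.

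Genes, lists and tests were chosen with earlier results of these data known. Beyond the 10 chemokine genes, text names list genes past the tissue test or the 2-fold rule in both regions, at most 6 per list, direction and comparison, ranked by the smaller log2 ratio, and the 5 genes most correlated with Ccl2 and Cxcl10. A receptor gene counted in its list is not reported here. Alternatives were DESeq2, scaling, count filter, pseudocount, duplicate-line handling, a replicate block, leaving out each library and, added after seeing the data, each region alone.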

Additional observations from a re-analysis of the deposited data

Results flagged for a closer look

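With N+F, 4 chemokine genes moved in opposite directions in the regions. The log2 ratios of CPM + 1 in hippocampal and cortical glia were -0.52 and 2.09 for Ccl7, -1.35 and 0.44 for Ccl3, -0.47 and 0.21 for Cxcl1, and -0.57 and 1.13 for Cxcl10. Each rests on 1 library per group, and the difference between the regions was not tested. The cortical N+F library also held the high fibroblast marker sum of 9119 CPM. It held less of both delivered genes than the hippocampal N+F library, with Nr4a2 at 36.9 against 488 CPM and Foxa2 at 13.5 against 140 CPM. The part of the markers and of the delivered genes was not tested.

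In tissue 1 N+F library lay apart from the other 3 for Cxcl1 (0.0899 CPM) and 1 for Cxcl2 (0.0816 CPM). Both values are a single count beside 3 libraries at 0, which always stands apart by this measure, so they say nothing about these libraries.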

How the results depend on the processing

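In tissue 17 genes were called, against 147 with DESeq2, 29 with no count filter and 0 with the replicate block. Leaving out a library gave 0 to 29 (29 without control 1, 3 without control 2, 1 without control 3, 0 without any N+F library). No chemokine gene was called in tissue under any of these. Same-numbered libraries did not deviate together (r -0.00, -0.08 and 0.13), and the block turned Ccl3 to 0.080 and Ccl5 to 0.18 (log2). Leaving out a library gave -0.80 to 0.088 for Ccl3, -0.62 to 0.66 for Ccl5, -0.19 to 0.56 for Cxcl5, and -0.0279 to 0.151 CPM for the Ccl2 difference. The additive amyloid beta fit called 5543 genes, 1950 to 2831 with a library left out, when fewer samples remain, and Ccl12 ranged from -1.20 to 1.59. The additive N+F fit called 471 genes with DESeq2 against 0. With a library left out it gave -0.86 to 2.43 for Ccl7, -2.30 to 1.05 for Ccl12, -2.24 to 0.88 for Ccl3, -0.77 to 1.93 for Ccl5, -0.69 to 0.43 for Cxcl1, -0.35 to 1.67 for Cxcl2 and -0.66 to 1.22 for Cxcl10, all lowest without the cortical N+F library. At a pseudocount of 5 CPM, 5 chemokine genes were at least 2-fold higher with amyloid beta in both regions, against 9. There, 0 were lower with N+F in both regions, and 1 (amyloid beta control) and 3 (N+F) were higher in cortical glia. Single regions gave 2 lower with N+F in hippocampal glia, and 2 lower and 3 higher in cortical glia. DESeq2 also called Ccl4 (adjusted p = 0.0105) and Ccl5 (0.00492) with amyloid beta. The cause of these shifts was not tested. Depth limits the tissue values, where 5 of the 10 genes did not pass the count filter.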

Other observations

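Some receptor symbols had counts in tissue that the cultures lacked. Ccr4 had 143 to 335 CPM and Cxcr2, the receptor of Cxcl1, Cxcl2 and Cxcl5, had 68.3 to 110 CPM in the 7 hippocampus libraries. In the 6 culture libraries Ccr4 had 0 CPM and Cxcr2 at most 0.0958 CPM. These genes were named after their values were seen, and the tables were made separately, so the levels are set side by side with no test. The tables also differ in their lines, 23282 in tissue and 36780 in culture. A difference in annotation or counting therefore cannot be told apart from a difference in receptor transcripts.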
